A study of Arabidopsis thaliana with 24 samples.

Results

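The 9 genes described here are accessory regulators of the Arabidopsis circadian clock, proteins that tune the clock without belonging to its core loop. They were taken by gene identifier, with earlier results of these data known: *CHE* (AT5G08330), *JMJD5* (AT3G20810), *LWD1* (AT1G12910), *LWD2* (AT3G26640), *TIC* (AT3G22380), *XCT* (AT2G21150), *FIO1* (AT2G21070), *PRMT5* (AT4G31120) and *SKIP* (AT1G77180). Each had 1 row among the 30237 genes of the table, and all 9 were among the 19473 genes counted as expressed, that is, above 4.5 on the log2 scale in at least 4 of 12 time points of *rve8-1* or of Col. The question was which of them cycled in constant light, which stayed level, and how the loss of RVE8 moved their phase or level.

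The 24 arrays held RNA from whole seedlings, 12 from *rve8-1* and 12 from Col. The *rve8-1* line has a T-DNA in the gene *RVE8* (AT3G09600), the only mutant allele used, and Col is the Columbia wild type. Seedlings of both genotypes had 7 days of 12 h light and 12 h dark and were then kept in continuous light, with no other treatment, and about 50 plants were pooled for each sample. The first harvest was 72 h after the start of continuous light and the last at 116 h, with 4 h between harvests. Each of the 6 circadian times (CT), 0, 4, 8, 12, 16 and 20 h, was therefore met once on the day called 4 and again on day 5, and the 2 arrays of a genotype and CT were treated as replicates. Arrays are named by genotype and harvest hour (Col_72). Values are log2 expression levels, on which a difference of 1 is a 2-fold change, and they are compared between arrays for 1 gene and not between genes.

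The plant clock is a loop of transcription factors in which morning genes such as *CCA1* and evening genes such as *TOC1* repress each other, and RVE8 activates evening genes in the afternoon. Around this loop act proteins that do not themselves have to cycle. CHE is a TCP transcription factor that binds the *CCA1* promoter, JMJD5 is a jumonji domain protein of the histone demethylase family, LWD1 and LWD2 are WD repeat proteins, and TIC and XCT are nuclear proteins. FIO1 methylates adenosine in RNA, PRMT5 methylates arginine in proteins, and SKIP belongs to the spliceosome. All 3 of these last proteins have been tied to the processing of RNA.

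*RVE8* itself was lower in *rve8-1* in all 12 pairs of arrays of the same harvest, with a lowest, median and highest level of 3.17, 3.93 and 4.70 in *rve8-1* and 4.28, 6.34 and 7.37 in Col. The medians of the arrays lay between 4.9 and 5.0. The shoot marker *RBCS1A* spanned 13.57 to 13.88 in *rve8-1* and 13.50 to 13.80 in Col and was at the top of the arrays' range, 13.50 to 13.88, where it says little about the genotypes. The root marker *PYK10* spanned 11.43 to 11.84 in *rve8-1* and 11.51 to 11.97 in Col. The other root markers, *COBL9* and *TIP2-3*, had medians of 5.06 and 6.97 in *rve8-1* and 4.87 and 7.02 in Col. The seed markers *CRA1* and *SESA1* had medians of 5.9 and 3.37 in *rve8-1* and 5.72 and 3.5 in Col. The pollen marker *VGD1* stayed at or under 4.93 on every array.

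The 9 regulators fell into a cycling pair, *JMJD5* and *CHE*, a group of low-amplitude genes called by fewer rhythm tests, and *XCT*, which no test called. JTK_CYCLE, which ranks a time course against cosine templates, was run on the joined time course. In it the Col harvests are followed by those of *rve8-1* from 76 to 116 h. The *rve8-1* harvest of 72 h is placed last, so the order builds in a 4 h delay of *rve8-1*. JTK_CYCLE called 4 of the 9 genes (*JMJD5*, *CHE*, *LWD1* and *SKIP*) at an adjusted p under 0.05, against 18.8% of all expressed genes. With p adjusted over the templates alone, a rule added after the values were seen, it called 6, those 4 with *TIC* and *PRMT5*, against 28.6% of expressed genes.

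In each genotype alone, JTK_CYCLE as rewritten here called none of the 9 in *rve8-1* and none in Col. It also called 0% and 0% of all expressed genes there, so *JMJD5* and *CHE* were among those missed. With 12 points the smallest adjusted p of any gene was 0.189 in *rve8-1* and 0.142 in Col. Adjusted over the templates alone, *JMJD5* and *CHE* passed in *rve8-1* (11.5% of expressed genes did), and *JMJD5*, *CHE* and *LWD1* in Col (13.8%). A test of the 6 times of day in limma called 4 genes in *rve8-1* (*JMJD5*, *CHE*, *TIC* and *FIO1*, against 14.4% of expressed genes) and 3 in Col (*JMJD5*, *CHE* and *SKIP*, against 11.8%).

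A 24 h cosine fitted in limma gave more calls. It called 7 of the 9 in *rve8-1*, all but *LWD2* and *XCT*, where 33.8% of expressed genes were called, and 4 in Col, *JMJD5*, *CHE*, *LWD2* and *SKIP*, where 21.8% were. In the joined time course it called 8, all but *XCT*, against 40.8%. Over the 9 genes the median amplitude of this cosine, that is, the distance from the mean to the peak, was 0.21 in *rve8-1* and 0.15 in Col, beside 0.18 and 0.16 over all expressed genes. The largest amplitudes of the 9 were those of *JMJD5* and *CHE*, in both genotypes.

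**Figure D1:**
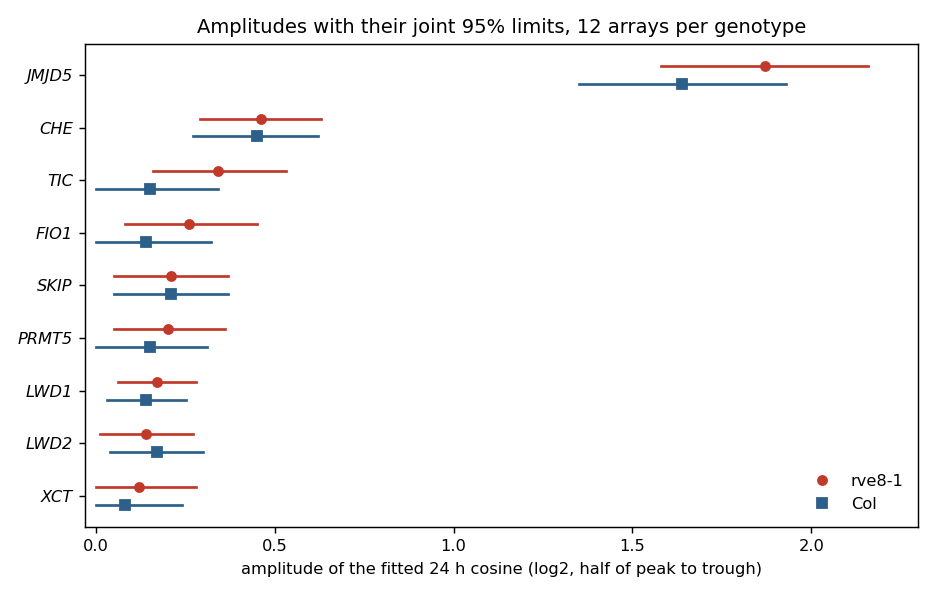
Amplitude of the 24 h cosine of each regulator on the log2 scale (x axis) in rve8-1 (circles) and Col (squares), with the joint 95% limits of its cosine and sine terms as bars, from 12 arrays per genotype. JMJD5 stands at 1.87 and 1.64, CHE at 0.46 and 0.45, and the other 7 genes at or below 0.34, with limits that reach 0 in Col for TIC, FIO1, PRMT5 and XCT.

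*JMJD5* had the widest rhythm of the group. Its lowest, median and highest levels were 4.68, 6.49 and 8.60 over the 12 *rve8-1* arrays, and 4.97, 6.48 and 8.12 over the 12 Col arrays. The fitted amplitude was 1.87 (SE 0.11) in *rve8-1* and 1.64 (SE 0.11) in Col, which is a peak 13.3-fold and 9.67-fold above the trough. These amplitudes were at the 99.9th percentile of expressed genes in each genotype, and the difference between them, 0.23, had a 95% interval from -0.10 to 0.56 that includes 0. The cosine was called in *rve8-1* (adjusted p = 1.04e-09, limma) and in Col (adjusted p = 4.36e-09, limma), and JTK_CYCLE called the joined time course (adjusted p = 0.000262).

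The *JMJD5* peak came at CT 16.6 (SE 0.23) in *rve8-1* and at CT 12.0 (SE 0.26) in Col. The genotypes therefore crossed during the day. At CT 8 the levels were 5.23 and 5.28 in *rve8-1*, against 7.55 and 7.85 in Col, a difference of -2.45 (SE 0.21), so that *rve8-1* was 5.45-fold lower. At CT 16 they were 8.60 and 8.32 in *rve8-1*, against 7.37 and 7.07 in Col. At CT 20 they were 7.56 and 7.94 in *rve8-1*, against 5.77 and 5.89 in Col, a difference of 1.92. Both *rve8-1* arrays lay above both Col arrays at CT 0, 16 and 20, below them at CT 8 and 12, and overlapped with them at CT 4.

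*CHE* was the other gene that every per-genotype limma test called, with a smaller and earlier rhythm. Its lowest, median and highest levels were 7.93, 8.42 and 9.0 in *rve8-1* and 8.27, 8.55 and 9.34 in Col. The amplitude was 0.46 (SE 0.07) in *rve8-1* and 0.45 (SE 0.07) in Col, a peak 1.89-fold and 1.86-fold above the trough, and the 95% interval of the difference ran from -0.18 to 0.20. Among expressed genes these amplitudes were at the 92.6th and 93.2nd percentiles. The cosine was called in *rve8-1* (adjusted p = 8.10e-05, limma) and in Col (adjusted p = 0.000106, limma), and the joined time course had an adjusted p of 0.000935 with JTK_CYCLE. The peak lay at CT 9.3 (SE 0.55) in *rve8-1* and CT 4.1 (SE 0.56) in Col.

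The genotypes differed in *CHE* most at CT 4, near the peak in Col. There its levels were 8.52 and 8.37 in *rve8-1*, against 9.24 and 9.34 in Col, which is -0.84 (SE 0.16) or 1.79-fold lower in *rve8-1*. At CT 0 they were 8.01 and 8.31 in *rve8-1*, against 8.60 and 9.04 in Col. At CT 12 the order turned, with 8.88 and 8.82 in *rve8-1*, against 8.49 and 8.47 in Col. The *rve8-1* arrays lay below both Col arrays at CT 0, 4 and 20, above them at CT 12, and overlapped with them at CT 8 and 16.

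**Figure D2:**
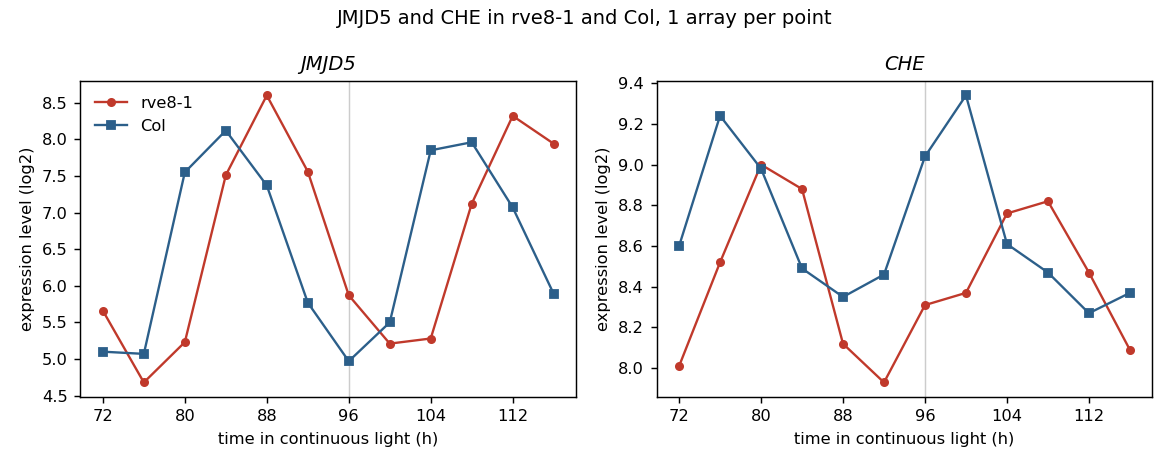
Log2 expression level (y axis) of JMJD5 and CHE against hours in continuous light (x axis), 1 array per point, rve8-1 as red circles and Col as blue squares; the grey line at 96 h marks the start of the fifth day. The JMJD5 peak falls at 88 and 112 h in rve8-1 and at 84 and 108 h in Col, and CHE reaches 9.24 and 9.34 at 76 and 100 h in Col, a height that no rve8-1 array reaches.

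*LWD1* and *LWD2* encode closely related WD repeat proteins that keep the period of the clock from shortening. *LWD1* spanned 7.86 to 8.31 (median 8.13) in *rve8-1* and 7.90 to 8.43 (median 8.10) in Col. Its amplitude was 0.17 (SE 0.04) in *rve8-1* and 0.14 (SE 0.04) in Col, or 1.26-fold and 1.21-fold from trough to peak. This small rhythm was called in the joined time course (adjusted p = 0.00320, JTK_CYCLE) and kept that call with any of the 24 arrays left out. At CT 4 the levels were 8.20 and 8.10 in *rve8-1*, against 8.21 and 8.43 in Col, and at CT 12 8.15 and 8.31 in *rve8-1*, against 8.13 and 8.07 in Col. By the cosine in limma it had an adjusted p of 0.0151 in *rve8-1* and 0.0594 in Col. This *rve8-1* call was lost without *rve8-1*_92 (adjusted p = 0.0524, limma).

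*LWD2* spanned 6.68 to 7.19 (median 6.92) in *rve8-1* and 6.75 to 7.17 (median 6.98) in Col. Its amplitude was 0.14 (SE 0.05) in *rve8-1* and 0.17 (SE 0.05) in Col, and the *rve8-1* value was 0.09 after quantile normalization. It missed the joined JTK_CYCLE test (adjusted p = 0.179). The cosine in limma was called in Col (adjusted p = 0.0396) and not in *rve8-1* (adjusted p = 0.0856). The 95% interval of the amplitude difference ran from -0.18 to 0.11, so the genotypes were not shown to differ. The Col call was lost without any of 10 arrays (Col_72, Col_76, Col_80 and Col_92 to Col_116), with adjusted p up to 0.114.

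*TIC* had the largest amplitude of the remaining genes in the mutant. It spanned 5.17 to 6.22 (median 5.58) in *rve8-1* and 5.19 to 5.81 (median 5.43) in Col. The amplitude was 0.34 (SE 0.07) in *rve8-1*, with a peak at CT 15.7, and 0.15 (SE 0.07) in Col, at the 84.3rd and 47.7th percentiles of expressed genes. The cosine was called in *rve8-1* (adjusted p = 0.00290, limma), with any array left out, and not in Col (adjusted p = 0.245, limma). The amplitude difference itself was 0.19 with a 95% interval from -0.01 to 0.40, which includes 0. At CT 16 the levels were 6.22 and 5.74 in *rve8-1*, against 5.5 and 5.36 in Col, and at CT 20 5.68 and 5.69 in *rve8-1*, against 5.38 and 5.57 in Col. At these times both *rve8-1* arrays were above both Col arrays, and at the other 4 the genotypes overlapped. Compared at the same harvest time over all times of day, *TIC* was not called (adjusted p = 0.205, limma). The share of all expressed genes separated in this way was not determined. The highest *rve8-1* value, 6.22 at 88 h, was not matched a day later, when the array at 112 h gave 5.74; without 1 array the amplitude in *rve8-1* ranged from 0.27 to 0.37.

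*XCT*, named for the XAP5 family, had no call in any rhythm test. It spanned 5.56 to 6.10 (median 5.78) in *rve8-1* and 5.67 to 6.14 (median 5.89) in Col. Amplitudes were 0.12 (SE 0.06) in *rve8-1* and 0.08 (SE 0.06) in Col, and the adjusted p of the cosine was 0.285 and 0.614 (limma). A missed test does not make a gene flat, but the upper 95% limits of 0.28 and 0.24 allow no more than a 1.48-fold swing from trough to peak in *rve8-1* and 1.39-fold in Col. The widest gap between genotypes was at CT 4, with 6.01 and 6.10 in *rve8-1*, against 5.81 and 5.87 in Col, a difference of 0.21 (SE 0.15). *XCT* and *FIO1* lie near each other on chromosome 2, with 8 annotated genes between them in the reference table.

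*FIO1* lay near the expression threshold of 4.5, with 10 of 12 *rve8-1* arrays and 7 of 12 Col arrays above it. Its lowest, median and highest levels were 4.19, 4.79 and 5.12 in *rve8-1* and 4.26, 4.5 and 4.75 in Col. The cosine had an amplitude of 0.26 (SE 0.07) and an adjusted p of 0.0185 (limma) in *rve8-1*, against 0.14 (SE 0.07) and 0.314 in Col. The *rve8-1* call was lost without *rve8-1*_72, *rve8-1*_88 or *rve8-1*_96, with adjusted p up to 0.0607. In the joined time course the cosine call (adjusted p = 0.0283, limma) was lost without any of 6 arrays, with adjusted p up to 0.0617. The 95% interval of the amplitude difference, from -0.08 to 0.33, includes 0.

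*PRMT5* spanned 5.62 to 6.27 (median 5.82) in *rve8-1* and 5.51 to 6.03 (median 5.79) in Col. Its amplitude was 0.20 (SE 0.06) in *rve8-1* and 0.15 (SE 0.06) in Col. The cosine was called in *rve8-1* (adjusted p = 0.0342, limma), a call lost without any of 6 *rve8-1* arrays (72, 76, 84, 88, 96 and 112 h; adjusted p up to 0.125), and not in Col (adjusted p = 0.158). The amplitude difference was 0.05, with a 95% interval from -0.12 to 0.23 that includes 0. PRMT5 protein is known to act on the clock through splicing, a step that these gene-level values do not resolve.

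*SKIP* spanned 6.39 to 6.96 (median 6.73) in *rve8-1* and 6.43 to 7.08 (median 6.63) in Col. The amplitude was 0.21 (SE 0.06) in *rve8-1* and 0.21 (SE 0.06) in Col, a 1.33-fold swing in each. At CT 8, the highest time in Col, the levels were 6.48 and 6.85 in *rve8-1*, against 7.0 and 7.08 in Col, while at CT 16 they were 6.96 and 6.86 in *rve8-1*, against 6.63 and 6.74 in Col. The *rve8-1* arrays were below both Col arrays at CT 0 and 8, above them at CT 4 and 16, and overlapped at CT 12 and 20. How many expressed genes were separated in this way was not determined. At the same harvest time *SKIP* was not called (adjusted p = 0.21, limma). Nor was its interaction of genotype and time of day (adjusted p = 0.194, limma). *SKIP* was the weakest of the joined calls (adjusted p = 0.0363, JTK_CYCLE), and it was lost without any of 9 arrays, 5 of *rve8-1* and 4 of Col, with adjusted p up to 0.0669. The cosine calls were as close to the threshold, at adjusted p = 0.0351 in *rve8-1* and 0.0490 in Col (limma), and leaving out 1 array ended the *rve8-1* call for 6 of the 24 arrays and the Col call for 19 of the 24, which included arrays of both genotypes.

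**Figure D3:**
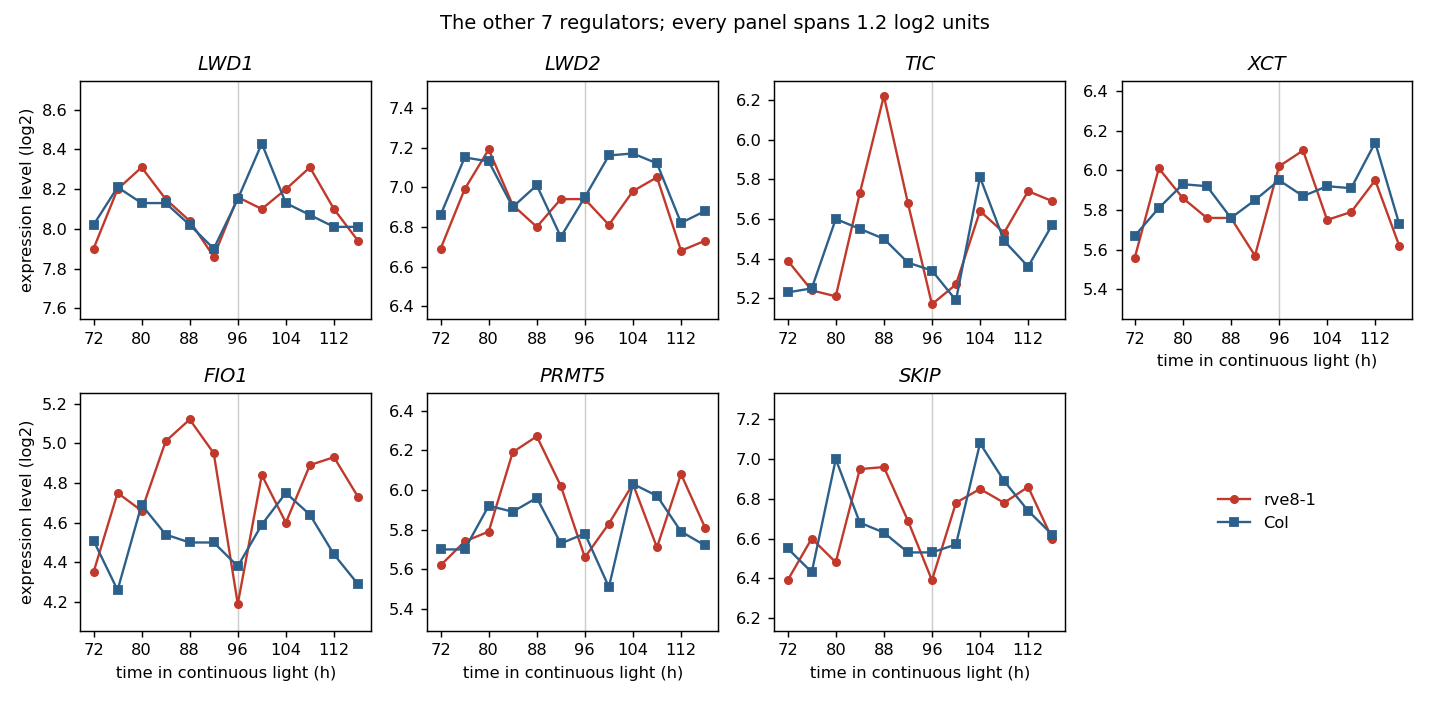
Log2 expression level (y axis, each panel spanning 1.2 units) of the other 7 regulators against hours in continuous light (x axis), 1 array per point, rve8-1 as red circles and Col as blue squares. SKIP peaks at 80 and 104 h in Col, with 7.00 and 7.08, TIC has its highest point at 88 h in rve8-1, and XCT stays between 5.56 and 6.14 on all arrays.

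The genotypes were compared first at the same harvest time, with a moderated F test over the 6 differences. It called 3 of the 9, *JMJD5* (adjusted p = 7.29e-06, limma), *CHE* (adjusted p = 0.00837) and *FIO1* (adjusted p = 0.0118), against 7.91% of expressed genes, and the same 3 with any of the 24 arrays left out. The difference depended on time of day for 2 of them, *JMJD5* (adjusted p = 5.69e-06, limma) and *CHE* (adjusted p = 0.0159), against 7.11% of expressed genes, while *FIO1* had an adjusted p of 0.0566. The other 6 had adjusted p between 0.205 for *TIC* and 0.662 for *XCT* at the same harvest time, and their largest difference at any time was 0.55, for *TIC* at CT 16.

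The third call, *FIO1*, had its largest differences at CT 16 and CT 20 (0.44), followed by CT 4 (0.37) and CT 12 (0.36). At CT 4 the levels were 4.75 and 4.84 in *rve8-1*, against 4.26 and 4.59 in Col. At CT 16 the levels were 5.12 and 4.93 in *rve8-1*, against 4.5 and 4.44 in Col, a difference of 0.56 (SE 0.13). At CT 12 they were 5.01 and 4.89 in *rve8-1*, against 4.54 and 4.64 in Col. At CT 20 they were 4.95 and 4.73 in *rve8-1*, against 4.5 and 4.29 in Col. The *rve8-1* arrays were above both Col arrays at CT 4, 12, 16 and 20, and below them at CT 0 and 8 by 0.18 and 0.09.

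Next, *rve8-1* was taken 4 h later than Col. For Col at CT 20 (92 and 116 h) this used the *rve8-1* arrays of CT 0 (72 and 96 h). None of the 9 was called (limma), against 0.0616% of expressed genes, which is 12 genes in all. Unadjusted p was under 0.05 for 2 of them, *FIO1* and *CHE*, beside 13.1% of expressed genes, and adjusted p over the 9 lay between 0.259 and 0.883. The largest difference of *JMJD5* was 0.53 at this offset, beside 2.45 at the same harvest time, and that of *CHE* was 0.41, beside 0.84. For *FIO1* the largest differences were 0.43 at the offset and 0.56 at the same time. At the offset *FIO1* in *rve8-1* lay above both Col arrays at 5 of 6 times of day, and *CHE* in *rve8-1* lay below both Col arrays at 5 of 6. Neither was called there (adjusted p = 0.259 and 0.359, limma). Such separation also occurred without a call. Compared at the same harvest time, *LWD1* and *PRMT5* in *rve8-1* each lay above both Col arrays at 3 times and below at 1 (adjusted p = 0.644 and 0.492, limma). The share of all expressed genes separated in this way was not determined.

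**Figure D4:**
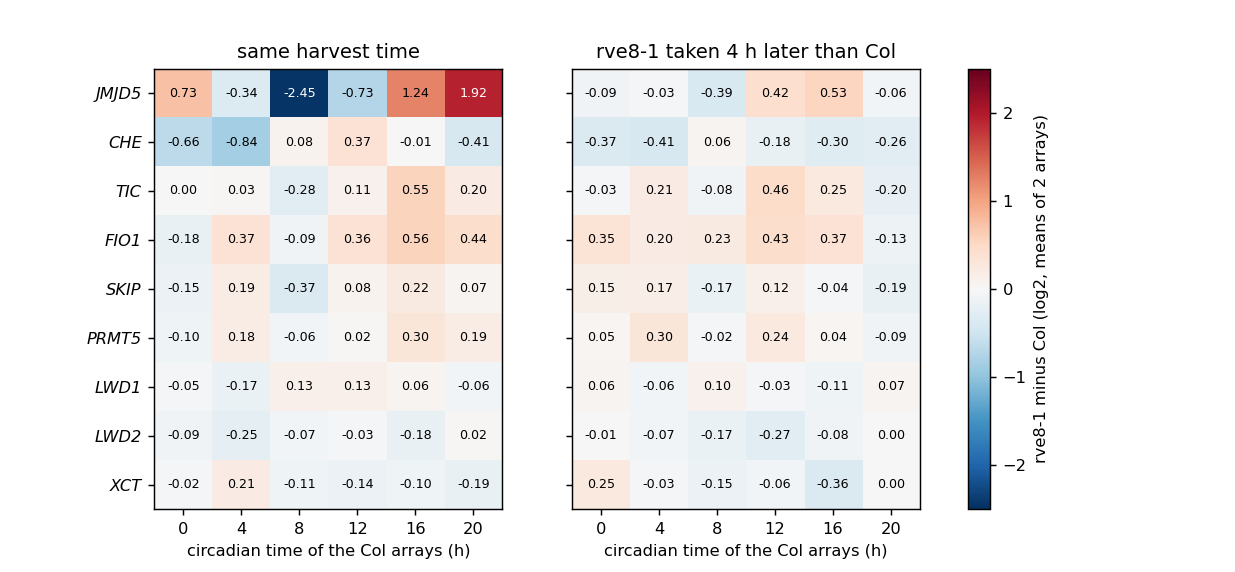
Difference in log2 level between rve8-1 and Col (colour and number, rve8-1 minus Col, means of 2 arrays each) for each regulator at the 6 circadian times of the Col arrays, on the left at the same harvest time and on the right with rve8-1 taken 4 h later. The JMJD5 row runs from -2.45 to 1.92 on the left and from -0.39 to 0.53 on the right.

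Peak times were compared for the 4 genes called in the joined time course, whose construction assumes a 4 h delay. The delay of *rve8-1* was 4.52 h (SE 0.34) for *JMJD5*, 5.23 h (SE 0.79) for *CHE*, 3.29 h (SE 1.53) for *LWD1* and 2.59 h (SE 1.60) for *SKIP*. The standard errors of *LWD1* and *SKIP* were several times that of *JMJD5*, and differences between the delays of genes were not tested. Over all 3660 genes called in that time course the median delay was 4.38 h (25th to 75th percentile, 3.41 to 5.34).

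The delay could also be read within each day, from 6 arrays per genotype. For *JMJD5* it was 3.92 h on day 4 and 5.18 h on day 5, and for *CHE* 3.81 h and 6.77 h. For *LWD1* it was 1.22 h and 5.19 h, and for *SKIP* 4.29 h and 0.33 h. It was thus longer on day 5 for 3 of the 4 genes and shorter for *SKIP*, a difference that was not tested. With the period free between 20 and 28 h, the best fit was 24.5 h in *rve8-1* and 23.5 h in Col for *JMJD5*, and 25 h and 23 h for *CHE*. For *LWD1* it was 25 h in *rve8-1* and 22 h in Col, and for *SKIP* 22 h and 24 h.

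**Figure D5:**
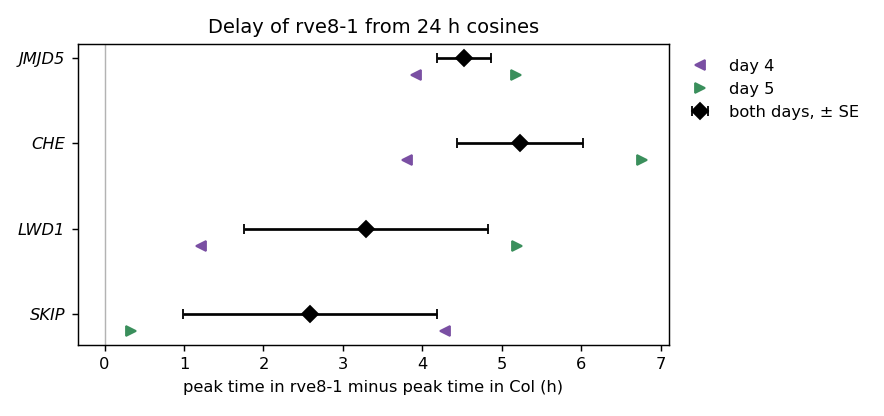
Peak time in rve8-1 minus peak time in Col, in hours (x axis), for the 4 regulators called in the joined time course; diamonds are the fit over both days with its standard error, and triangles the fits to day 4 and day 5 alone. JMJD5 and CHE lie at 4.52 and 5.23 h, and the day 4 and day 5 values of SKIP lie 4.29 and 0.33 h from 0.

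For a 24 h rhythm, the mean over the 6 times of day separates a change of level from a change of phase, approximately. Of the 9 genes 1 was called, *FIO1*, which was higher in *rve8-1* by 0.24 (SE 0.05; adjusted p = 0.0412, limma), against 0.416% of expressed genes called higher. Its mean was 4.75 ± 0.27 in *rve8-1* and 4.51 ± 0.15 in Col (SD, n = 12 each), and it was higher in *rve8-1* in 8 of 12 pairs of the same harvest. This call did not stand firmly, since it was lost without any of 18 of the 24 arrays, with adjusted p up to 0.0959. The 6 whose removal kept it were the *rve8-1* arrays of 76, 80, 96, 112 and 116 h and Col_100.

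None of the 9 was called lower in *rve8-1* (limma), against 0.657% of expressed genes; *CHE* came nearest, at -0.24 (SE 0.07; 95% interval, -0.39 to -0.10), with an unadjusted p of 0.00229 and an adjusted p of 0.0836. It was called with *rve8-1*_80 or *rve8-1*_112 left out, at adjusted p of 0.0409 in the lower case. For *JMJD5* the mean differed by 0.06 (95% interval, -0.12 to 0.24), so its large differences at single times of day averaged out over the cycle. The 95% intervals of the other 6 genes all included 0, and their furthest limits were -0.21 for *LWD2* and 0.24 for *TIC*. The median difference over the 9 was 0.01.

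The expressed genes whose 24 values followed a regulator most closely are given as a description; the arrays share the time of day, and genotype and phase move many genes together. *TOC1* (AT5G61380) was among the 3 nearest to *JMJD5*, with a Pearson r of 0.965 over 24 arrays, 0.953 over the 12 of *rve8-1* and 0.981 over the 12 of Col. The others were AT4G27130 at 0.974 and AT5G39410 at 0.962, beside 0.961 for the next gene. Nearest to *CHE* were AT5G54585 and AT1G01240 at 0.932 and *PAR1* (AT2G42870), a regulator of shade responses, at 0.929. For *SKIP* they were *MAC3B* (AT2G33340), which like *SKIP* encodes a spliceosome-associated protein, at 0.911, the RNA helicase gene *DRH1* (AT3G01540) at 0.902 and *PTAC3* (AT3G04260) at 0.891. *LWD1* was followed most closely by AT5G60680, AT1G80180 and AT5G03120, at 0.914, 0.906 and 0.905.

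Lists of genes of related function were set beside the regulators. Of 19 core clock genes, 16 were called in the joined time course by JTK_CYCLE, beside 18.8% of expressed genes. In limma, 15 were called at the same harvest time, beside 7.91%, and 0 at the 4 h offset, beside 0.0616%. For the mean level 0 were called (limma), beside 0.416% of expressed genes called higher in *rve8-1* and 0.657% lower. At an unadjusted p under 0.05 there were 4 at the offset, beside 13.1% of expressed genes, and 4 for the mean level, beside 20.1%. *CCA1* (AT2G46830), on which CHE acts, had amplitudes of 1.57 in *rve8-1* and 1.68 in Col with a delay of 4.59 h (SE 0.37), and *TOC1*, a partner of CHE, had 1.24 and 1.18 with a delay of 3.75 h (SE 0.43). Of 5 relatives and partners of the regulators (*JMJ32*, *TTG1*, *TCP20*, *TCP22* and *TIC-LIKE*), JTK_CYCLE called 0 in the joined time course, beside 18.8% of expressed genes. Adjusted over templates alone it also called 0, beside 28.6%. In limma, 0 were called at the same harvest time, beside 7.91%, and 1 had an unadjusted p under 0.05, beside 23.8%. For the mean level *TIC-LIKE* was nearest, at 0.26 (SE 0.06, adjusted p = 0.0546, limma). Of 9 factors of RNA processing with a clock phenotype, 8 were expressed. The same 2, *GRP7* and *GRP8*, were called in the joined time course and at the same harvest time, beside 18.8% and 7.91% of expressed genes. None of the 8 was called at the offset (limma), beside 0.0616% of expressed genes. For the mean level 0 were called (limma), beside 0.416% called higher in *rve8-1* and 0.657% lower. At an unadjusted p under 0.05 there was 1 at the offset, beside 13.1% of expressed genes, and 4 for the mean level, beside 20.1%. The highest amplitude in the core clock list was 1.73 in *rve8-1* and 1.78 in Col, so that *JMJD5*, at 1.87 and 1.64, was above all 19 in *rve8-1* and below the highest in Col. These ranks were not tested. The joint 95% limits of *JMJD5*, 1.58 to 2.16 in *rve8-1* and 1.35 to 1.93 in Col, include those highest values.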

How the data were processed

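RNA from 24 pooled seedling samples was hybridized to AGRONOMICS1 tiling arrays. Per their methods, the authors removed probes that hybridized poorly, applied RMA (background correction, normalization and a summary per TAIR9 gene) and deposited the resulting log2 values, 1 for each gene on each array. These values were used as given, and scanner intensities were not used here. Their precision is limited by the number of arrays, 2 per genotype and time of day. The arrays of a group were harvested a day apart, so p-values measure the spread between these arrays only, which may hold technical, culture and day effects.

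Genes were matched by the row identifier before its suffix, and all 9 matched 1 row and a symbol of the reference table. The 9 genes and the lists beside them were chosen with earlier results of these data known. A gene counted as expressed with at least 4 of 12 time points above 4.5 in either genotype. Models with 1 mean per genotype and time of day (12 groups), or with a 24 h cosine per genotype, were fitted to all expressed genes with limma 3.58.1 in R 4.3.3. P-values were adjusted over all 19473 expressed genes by the Benjamini-Hochberg method, with a threshold of 0.05, also where the text gives adjusted p for 1 genotype. JTK_CYCLE was rewritten in Python 3.11.15 with 18 templates (periods of 20, 24 and 28 h, phases in steps of 2 h), a Bonferroni adjustment over templates and then the Benjamini-Hochberg adjustment. The adjustment over templates alone was added after the values were seen. Models were also run on simulated data, the results of which are not given here.

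Named genes were the 9 regulators, *RVE8*, the 3 genes nearest by Pearson r to each regulator called in the joined time course, *CCA1*, *TOC1* and at most 3 genes of each list with the smallest p; the 5 relatives and partners are named in full. Of the marker genes chosen for shoot, root, pollen and seed, 7 had a row. For those given with the results by their medians, *COBL9* spanned 4.69 to 5.19 in *rve8-1* and 4.56 to 5.17 in Col. In the same order *TIP2-3* spanned 6.31 to 7.39 and 6.62 to 7.27. *CRA1* spanned 5.34 to 6.95 and 4.75 to 6.83, and *SESA1* 2.75 to 4.05 and 2.81 to 4.35. Same-numbered arrays share a day of free run, as the harvest times show; a day effect over both genotypes had adjusted p from 0.824 to 1 for the 9 genes (limma). Alternatives covered the expression filter, scaling, the variance prior, the thresholds, the replicate block, each array left out, and the form of the rhythm tests.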

Additional observations from a re-analysis of the deposited data

Results flagged for a closer look

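For 2 regulators the difference between *rve8-1* and Col was not the same at all times of day, by the interaction of genotype and time of day. The adjusted p was 5.69e-06 for *JMJD5* and 0.0159 for *CHE* (limma), where 7.11% of expressed genes were called. With *rve8-1* taken 4 h later than Col neither gene was called (adjusted p = 0.412 for *JMJD5* and 0.359 for *CHE*, limma). For *JMJD5* the difference, *rve8-1* minus Col, ran from -2.45 at CT 8 to 1.92 at CT 20, and for *CHE* from -0.84 at CT 4 to 0.37 at CT 12. Both calls were kept with any of the 24 arrays left out, with adjusted p up to 5.86e-05 for *JMJD5* and 0.0449 for *CHE*.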

How the results depend on the processing

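At the same harvest time the 3 calls did not change under any alternative run but a threshold of 0.01, which left 2, without *FIO1*, and at the 4 h offset no alternative run gave a call. This includes the fit with the replicate block (day of free run), which called 3 at the same harvest time, 0 at the offset, 1 for the mean level and 2 for the genotype by time of day interaction, the same counts as without the pairing. The count for the mean level was 0 without the expression filter, 0 with a trended and robust prior and 0 at an adjusted p under 0.01, and ranged from 0 to 2 with 1 array left out. The interaction count was 1 at an adjusted p under 0.01, and 3 with *FIO1* after median centring (adjusted p = 0.0394) or quantile normalization (adjusted p = 0.0118). In *rve8-1* the count of rhythmic genes, 0 by JTK_CYCLE with both adjustments, was 2 with the adjustment over templates only, 7 with the 24 h cosine and 4 with times of day in limma. In Col, where it was also 0, it was 3, 4 and 3 in the same order. In the joined time course it was 8 with the 24 h cosine, beside 4, and 5 with 24 h templates only, which added *TIC*. *SKIP* missed the threshold without the expression filter (adjusted p = 0.0550) and after median centring (adjusted p = 0.0694). The median delay of 3.90 h was 5.19 h from day 5 alone. The mean difference of *LWD1* turned to -0.0188 and that of *SKIP* to -0.0189 after median centring, and with 1 array left out they ranged from -0.0159 to 0.0271 and from -0.0247 to 0.0358. The causes of these changes were not tested. With 12 arrays per genotype the joint 95% limits still allowed amplitudes of 0.28 in *rve8-1* and 0.24 in Col for *XCT*.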
